A study of Sus scrofa with 13 samples.

Results

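Genes of liver macrophages, 10 in number, were examined in bulk RNA from pig livers: CD163, MARCO, CD68, CSF1R, VSIG4, MRC1, MSR1, CD14, TLR4 and SPI1. They were taken by symbol from the deposited count table, which holds 35670 gene rows, 17640 of them with a symbol. Each of the 10 symbols had 1 row, and all 10 passed the filter on low counts that left 16481 genes for testing. The 13 libraries came from 13 liver samples of female Yorkshire pigs. The 2 baseline samples (1a and 2) had no ischemia, no reperfusion and no cells. The 3 ischemic controls had all blood flow to the liver clamped for 45 min and were sampled at 6 h of reperfusion, no cells being given. The 8 infused livers went through the same clamping and reperfusion and were given human bone marrow mesenchymal stromal cells (BM-MSCs, 3000000 per kg bodyweight), by the hepatic artery in the 4 arterial livers and by the portal vein in the 4 portal livers. The age of the pigs, and which lobe each biopsy came from, are not given in the sources used here. The study's text tells of an air embolism in 1 portally infused pig and of an arterial spasm or dissection in 1 arterially infused pig, and the labels do not say whether those livers are among these libraries. Nor do they say whether a baseline biopsy and a later one came from the same animal, so that the p-values measure the spread between these samples.

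Kupffer cells are the resident macrophages of the liver and lie inside the sinusoids, where they clear bacteria, complexes and damaged cells from portal blood. They do so with scavenger receptors (CD163, MARCO, MSR1 and the mannose receptor MRC1) and with VSIG4, a receptor for complement-coated particles. Lipopolysaccharide is sensed by CD14 and TLR4, macrophage survival depends on the growth factor receptor CSF1R, and the transcription factor SPI1 (PU.1) sets up the myeloid lineage. Not all of these genes are restricted to macrophages: MRC1 is also made by the sinusoidal endothelium, and CD14 by hepatocytes and by monocytes from the blood. In a bulk biopsy, fewer cells of a type and less RNA per cell cannot be told apart.

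The libraries held between 18975413 and 35949178 counted reads, with a median of 30260803, and the 50 most abundant genes took 35.03% to 51.1% of them. Levels are given as normalized counts, the reads of a gene divided by the size factor of its library, and are compared between libraries for 1 gene at a time, not between genes. In 4 libraries (ischemic control 2, arterial infusion 1 and portal infusions 1 and 4) the transcriptome stood apart. On the first principal component of the 500 most variable genes, which carried 62.2% of their variance and included 1 of the 10 genes (MSR1), they lay between 26.2 and 105.5 and the other 9 libraries between -40.6 and -14.1. Between 1220 and 3434 of the tested genes had 0 reads in these 4 libraries, against 294 to 1514 in the others. The summed level of 10 hepatocyte genes was also lower in them, at 39680 to 71740 CPM, that is, reads scaled to the library total, against 84060 to 146200, and that of 8 stellate cell and fibroblast genes was 149 to 291 CPM against 327 to 1597. The main values that rest on these libraries are therefore also given without them.

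CD163, the scavenger receptor that takes up haptoglobin-bound hemoglobin (ENSSSCG00000033146, Sscrofa11.1 chr5:63300200-63334497), was at 9441 and 5276 normalized counts in the baseline livers and at 9303, 4534 and 6900 in ischemic controls 1 to 3. Arterial infusions 1 to 4 were at 2023, 4564, 5270 and 7755, and portal infusions 1 to 4 at 914, 4874, 7262 and 3449. The 4 groups overlapped, and the widest range was in the portal group, where the highest liver had 7.95 times the level of the lowest. VSIG4, the complement receptor of Kupffer cells (ENSSSCG00000035170, chrX:52175601-52198635), was at 1178 and 905 at baseline, 937, 795 and 1131 in the controls, 416, 860, 875 and 954 after arterial and 220.3, 694, 1131 and 694 after portal infusion. Its lowest livers, portal infusion 1 and arterial infusion 1, were also the lowest for CD163. MSR1, a scavenger receptor for modified lipoproteins (ENSSSCG00000006979, chr17:3859903-3939612), was at 361 and 218 at baseline, 282, 92.8 and 338 in the controls, 44.6, 209.8, 217 and 792 after arterial and 0, 117, 378 and 167 after portal infusion. Portal infusion 1 had 0 reads of MSR1, which allows up to 3 reads, and it was the only library with 0 reads for any of the 10 genes. That library also had the most tested genes with 0 reads, at 3434.

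MARCO, a scavenger receptor that binds bacteria (ENSSSCG00000015716, chr15:24502935-24541286), was highest in livers in which CD163 was lowest. It was at 304 and 81.2 normalized counts at baseline and 200.1, 452 and 215 in the controls, against 3695, 331, 173 and 146 after arterial and 1090, 315, 243 and 784 after portal infusion. Arterial infusion 1 was 25.4 times above the lowest arterial liver, the widest spread within any group among the genes with reads in every library. MRC1, the mannose receptor (ENSSSCG00000011038, chr10:44107926-44226734), was at 3169 and 3459 at baseline and at 1978, 1578 and 976 in the controls. It was at 1402, 2274, 1493 and 3591 after arterial and at 928, 951, 1605 and 1668 after portal infusion. Both baseline livers lay above every control and every portal liver, and arterial infusion 4 lay above both of them.

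CD14, the co-receptor that hands lipopolysaccharide to TLR4 (ENSSSCG00000014369, chr2:142348036-142349686), was at 19440 and 17200 normalized counts at baseline and 25940, 77780 and 20920 in the controls. The arterial livers were at 28220, 20570, 26020 and 15560 and the portal livers at 27040, 21660, 21530 and 27280. Ischemic control 2 stood alone, and the other 12 livers spanned 15560 to 28220. TLR4 itself (ENSSSCG00000005503, chr1:258044610-258054641) was at 528 and 541 at baseline, 456, 296 and 495 in the controls, 246, 263, 295 and 673 after arterial and 394, 219.5, 340.1 and 267 after portal infusion. The 2 baseline livers were close to each other, and of the 11 livers at 6 h arterial infusion 4 lay above them.

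CSF1R, the receptor of the macrophage growth factors CSF1 and IL34 (ENSSSCG00000014441, chr2:151102138-151130311), was at 2623 and 1723 normalized counts at baseline and 2018, 6054 and 3748 in the controls. It was at 1817, 1740, 1820 and 2290 after arterial and 2306, 1602, 2062 and 2276 after portal infusion. The 8 infused livers were close together, from 1602 to 2306, while the 3 controls differed by 3.00 times. SPI1 (ENSSSCG00000013237, chr2:15227850-15245679) was at 1736 and 2144 at baseline with 3294, 5404 and 3218 in the controls, against 1867, 1974, 2824 and 2544 after arterial and 3971, 1694, 1712 and 3474 after portal infusion. All 3 controls lay above both baseline livers and above all 4 arterial livers. CD68, a lysosomal glycoprotein of phagocytes (ENSSSCG00000017956, chr12:52874754-52877256), was at 1142 and 778 at baseline, 678, 779 and 1875 in the controls, 351, 965, 795 and 1853 after arterial and 302, 621, 841 and 315 after portal infusion. Control 3 and arterial infusion 4 were its highest livers and portal infusion 1 its lowest.

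**Figure D1:**
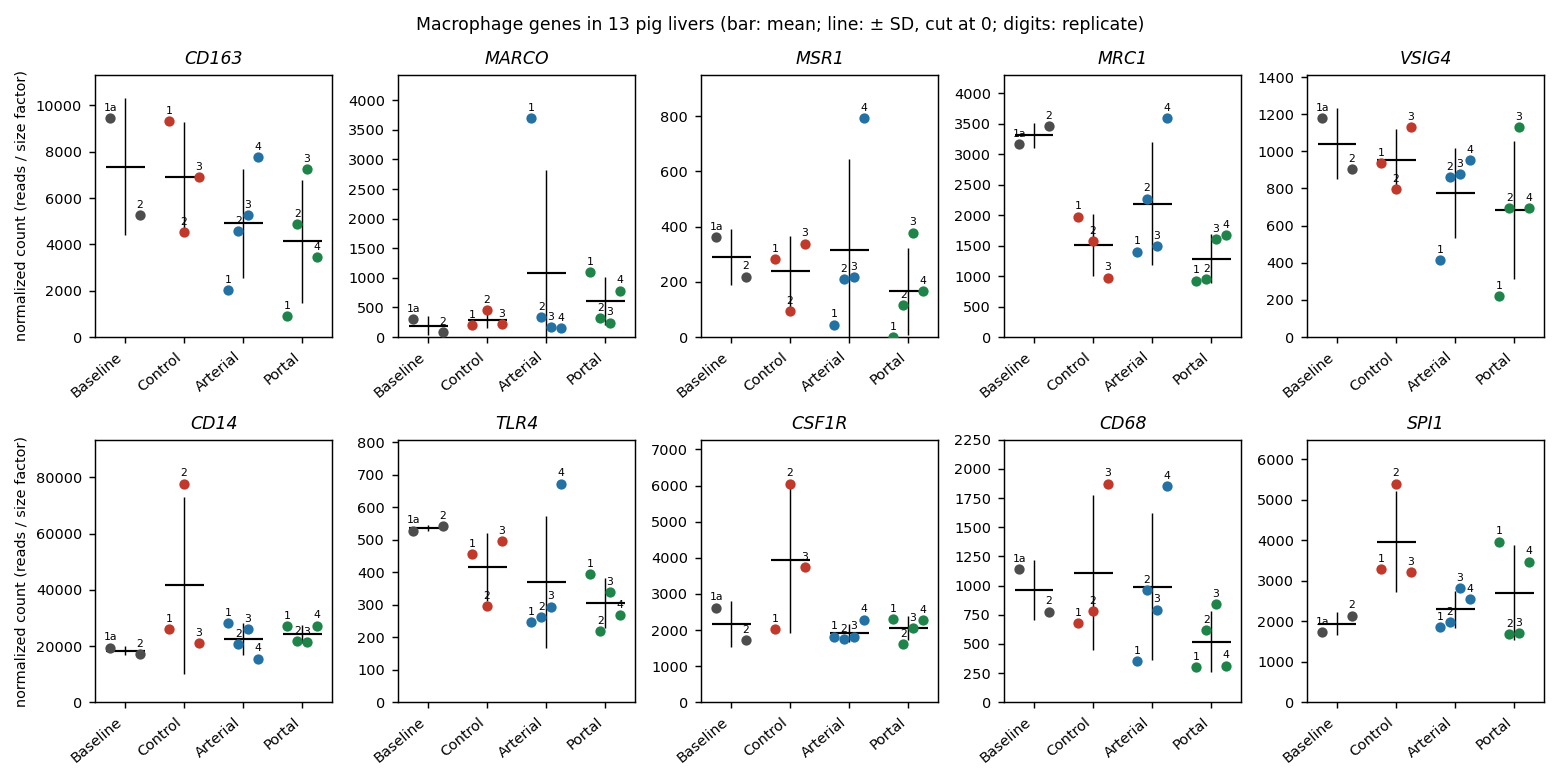
Normalized counts (y axis, reads divided by the size factor, scale set per gene and starting at 0) of the 10 genes by group (x axis); each point is 1 liver with its replicate number, the bar is the group mean and the line the SD, ended at 0. The spread within the groups is wide: ischemic control 2 stands at 77780 for CD14, arterial infusion 1 at 3695 for MARCO and portal infusion 1 at 914 for CD163.

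Ischemia and reperfusion without cells was examined by comparing the 3 ischemic controls with the 2 baseline livers. The baseline biopsies were taken before clamping, and no group had the operation without clamping. Time under anesthesia and surgery therefore cannot be told apart from ischemia and reperfusion in any comparison with baseline. By edgeR's quasi-likelihood test with a threshold of 0.05 for the adjusted p, 0 of the 10 genes were called, as were 0 of all 16481 tested (0%). At an unadjusted p under 0.05 there were 2 of the 10, MRC1 and SPI1, against 4.37% of all tested genes, a count that ran from 0 to 4 with each library left out in turn and was 0 without ischemic control 2 or without either baseline liver. DESeq2 called none of the 10 either. The log2 fold changes of the 10 genes had a median of 0.06 (all tested genes 0.0048), with 5 positive (50.2% of all tested genes) and 5 negative.

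MRC1 was at 1511 ± 504 (SD, n = 3) in the controls against 3314 ± 205 (SD, n = 2) at baseline. Its log2 fold change was -1.13 (standard error, SE, 0.49, edgeR, unadjusted p = 0.0348, adjusted p = 0.978), and it lay between -1.42 and -0.88 when each library was left out in turn. SPI1 was at 3972 ± 1241 against 1940 ± 288, a log2 fold change of 1.02 (SE 0.46, edgeR, unadjusted p = 0.0414, adjusted p = 0.978), and 0.78 without ischemic control 2. CD14 had a log2 fold change of 1.15 (SE 0.55, edgeR, adjusted p = 0.978), which was 0.39 without ischemic control 2. CSF1R had one of 0.83 (SE 0.44, edgeR, adjusted p = 0.978), and 0.44 without that library. The controls did not overlap with baseline for CD14 and SPI1 on the high side, which held for 14.8% of all tested genes, and for MRC1 and TLR4 on the low side, which held for 16.3%. TLR4 overlapped when counts were divided by library totals alone. With 3 livers against 2, the exact permutation test (two-sided) cannot go below p = 0.1, which MRC1 and SPI1 both reached. For CD163, VSIG4, MSR1 and CD68 the log2 fold changes were between -0.27 and 0.20 with standard errors of 0.57 to 1.32, and each turned sign when single libraries were left out.

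With all 11 livers at 6 h set against baseline, again none of the 10 genes passed the adjusted p (edgeR, 0% of all tested genes), and MRC1 alone had an unadjusted p under 0.05, against 4.78% of all tested genes, which it lost without either baseline liver. It was at 1677 ± 763 (SD, n = 11) against 3314 ± 205, a log2 fold change of -1.05 (SE 0.38, edgeR, unadjusted p = 0.0158, adjusted p = 0.860). The exact permutation test over the 78 ways to choose 2 of 13 livers gave p = 0.0385, the smallest p it could give being 0.0128. It was lower than both baseline livers in 10 of the 11 livers and stayed between -1.16 and -0.96 on the log2 scale with each library left out. Since the sinusoidal endothelium makes MRC1 too, its markers were set beside it. The summed level of the 9 tested endothelial genes was 662 and 700.4 CPM in the 2 baseline livers, against 336 to 575 in the controls, 361 to 816 in the arterial and 272 to 463 in the portal livers. Arterial infusion 4, the highest liver for MRC1 at 6 h, was also the highest of the 13 livers for MSR1 and TLR4, at 792 and 673 normalized counts. It was the highest for these endothelial markers too. Among them OIT3, a sinusoidal endothelial gene, was at 1358 and 1640 normalized counts at baseline and at 309, 303 and 383 in the controls, and KDR, the VEGF receptor, at 2373 and 2694 against 912, 1119 and 1234. They had the largest differences of the list, in which 6 of 9 genes were lower (49.6% of all tested genes). The other 3, F8, LYVE1 and CDH5 (named after their values were seen), had log2 fold changes of 0.68, 0.16 and 0.05. Neither OIT3 nor KDR passed in edgeR, and OIT3 did in DESeq2 on only these groups (adjusted p = 0.00411). Whether the lower MRC1 counts came from macrophages or from endothelium was not tested.

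**Figure D2:**
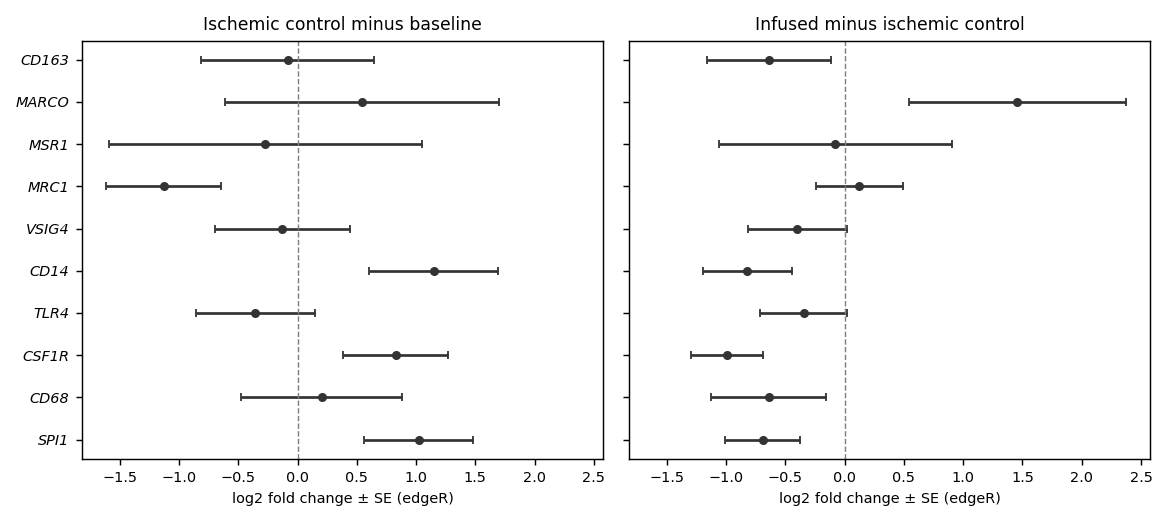
Log2 fold change with its standard error (x axis, edgeR, all 13 libraries in 1 fit) of the 10 genes (y axis) in ischemic controls minus baseline (left) and all infused livers minus ischemic controls (right); the dashed line is no difference. MRC1 lies at -1.13 and SPI1 at 1.02 on the left, and CSF1R at -0.99 and MARCO at 1.46 on the right.

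Infusion of BM-MSCs was examined by comparing the 8 infused livers with the 3 ischemic controls. None of the 10 genes passed the adjusted p (edgeR, 0% of all tested genes), and 3 of the 10 had an unadjusted p under 0.05, CSF1R, CD14 and SPI1, all lower after infusion, against 2.14% of all tested genes in either direction and 1.41% on the low side. All 3 lost this without ischemic control 2, where 0 of the 10 had an unadjusted p under 0.05, and under most other scalings and filters 1 of the 10 had one. Without the 4 livers that stood apart 1 of the 10 had one, SPI1, against 9.37% of all genes then tested. The log2 fold changes there were -0.61 for CSF1R, -0.15 for CD14 and -0.67 for SPI1. DESeq2 called none of the 10. The log2 fold change was negative for 8 of the 10 genes (52.1% of all tested genes) and had a median of -0.52 (all tested genes -0.023).

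CSF1R was at 1602 to 2306 normalized counts in the infused livers (median 1941) and at 2018, 3748 and 6054 in the controls, so that control 1 lay among the infused livers. The log2 fold change was -0.99 (SE 0.31, edgeR, unadjusted p = 0.00563, adjusted p = 1.000), and -0.59 without ischemic control 2. The exact permutation test over the 165 regroupings gave p = 0.0303. CD14 was at 15560 to 28220 in the infused livers (median 23840), and its log2 fold change of -0.82 (SE 0.38, edgeR, unadjusted p = 0.0457) was -0.05 without ischemic control 2, at 77780 by far the highest liver. SPI1 was at 1694 to 3971 (median 2259) against 3218 to 5404, a log2 fold change of -0.69 (SE 0.32, edgeR, unadjusted p = 0.0462), and -0.44 without ischemic control 2 (exact permutation test with all livers, p = 0.0667). MARCO was at 146 to 3695 in the infused livers (median 323) against 200.1 to 452, with a log2 fold change of 1.46 (SE 0.92, edgeR, adjusted p = 1.000), and 0.31 without arterial infusion 1. CD163 was at 914 to 7755 (median 4719) against 4534 to 9303, a log2 fold change of -0.64 (SE 0.52, edgeR, adjusted p = 1.000), which was -0.32 without ischemic control 1 and -0.45 without the 4 livers that stood apart. In all, 60 exact permutation tests were run on the 10 genes over 6 comparisons that share livers, and 3 gave a p under 0.05.

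By route, none of the 10 genes passed the adjusted p in arterial infusion against controls, in portal infusion against controls or in arterial against portal infusion (edgeR, 0% of all tested genes each). CSF1R had an unadjusted p under 0.05 in both comparisons with the controls, against 1.57% of all tested genes for the arterial and 2.79% for the portal route, the controls being the same 3 livers. Without ischemic control 2 it had one in neither, and over fits that each omitted 1 library the count of the 10 genes ran from 0 to 3 for the arterial and from 1 to 2 for the portal route. It was at 1916 ± 252 (SD, n = 4) after arterial and 2061 ± 325 (SD, n = 4) after portal infusion, against 3940 ± 2025 (SD, n = 3). SPI1 after arterial infusion, at 1867 to 2824, was the single case in which infused livers of 1 route did not overlap with the controls, which held for 1.57% of all tested genes on the low side. The exact permutation test gave p = 0.0286 for it, the smallest p that 4 livers against 3 allow. Between the routes 0 of the 10 genes had an unadjusted p under 0.05, against 2.4% of all tested genes. Without arterial infusion 1 there were 3, MARCO, CD68 and MRC1, against 4.78% of all genes then tested. The log2 differences, arterial minus portal, ran from -0.18 to 0.92 with all livers. CD68, at 991 ± 630 after arterial and 519.8 ± 259.8 after portal infusion, and MSR1, at 316 ± 327 and 166 ± 158, had the largest of these differences and overlapped between the routes.

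Differences among livers also cut across the treatment groups. In ischemic control 2, arterial infusion 1 and portal infusions 1 and 4, CD163 was at 914 to 4534 normalized counts, below all of the other 9 livers at 4564 to 9441. In the same 4 livers MARCO was at 452 to 3695, above the other 9 at 81.2 to 331. Both orders also held on CPM scaled by TMM and by library totals. CD14 was at 27040 to 77780 in the 4 livers against 15560 to 26020, an order that held for library totals but not for TMM-scaled CPM, where the ranges overlapped at 898 to 2705 against 562 to 991. The other 7 genes overlapped between the 4 and the 9 livers. These 4 livers were set apart by their transcriptomes, so the comparison is a description without a test. How many of all tested genes kept these livers apart was not counted, so the orders cannot be read as particular to these genes. For CD163 the gap was narrow, at 4534 against 4564.

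A ratio of 2 genes within a library does not depend on how libraries are scaled. CD14 reads were 7.91 to 29.6 times the CD163 reads in the 4 livers (17.2 in ischemic control 2, 14.0 in the first arterial liver, 29.6 and 7.91 in portal livers 1 and 4) and 2.01 to 4.94 times in the other 9. MARCO reads were 0.569, 8.87, 4.93 and 1.13 times the VSIG4 reads in the same 4 livers, in that order, and 0.0908 to 0.454 times in the other 9. Both separations follow from the levels of the genes given above and add no further evidence. Between the study's groups the ratios overlapped. The log2 ratio of CD14 to CD163 was 1.37 ± 0.47 (SD, n = 2) at baseline, 2.39 ± 1.48 (SD, n = 3) in the controls and 2.61 ± 1.25 (SD, n = 8) after infusion, with an exact permutation p of 0.600 for controls against baseline and 0.788 for infused livers against controls. For MARCO over VSIG4 it was -2.71 ± 1.07, -1.81 ± 0.87 and -0.52 ± 2.20, with exact permutation p of 0.600 and 0.376. Hepatocyte and stellate cell genes were lower in the 4 livers, as given above, and CEBPB, a transcription factor of both myeloid cells and hepatocytes, was higher, at 745 to 1289 CPM against 151 to 554. The other 5 myeloid transcription factor genes of the list summed to 70.6 to 134 CPM against 56.5 to 108 and overlapped. The part of these differences in cell content and library quality in the levels of CD163, MARCO and CD14 was not tested.

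**Figure D3:**
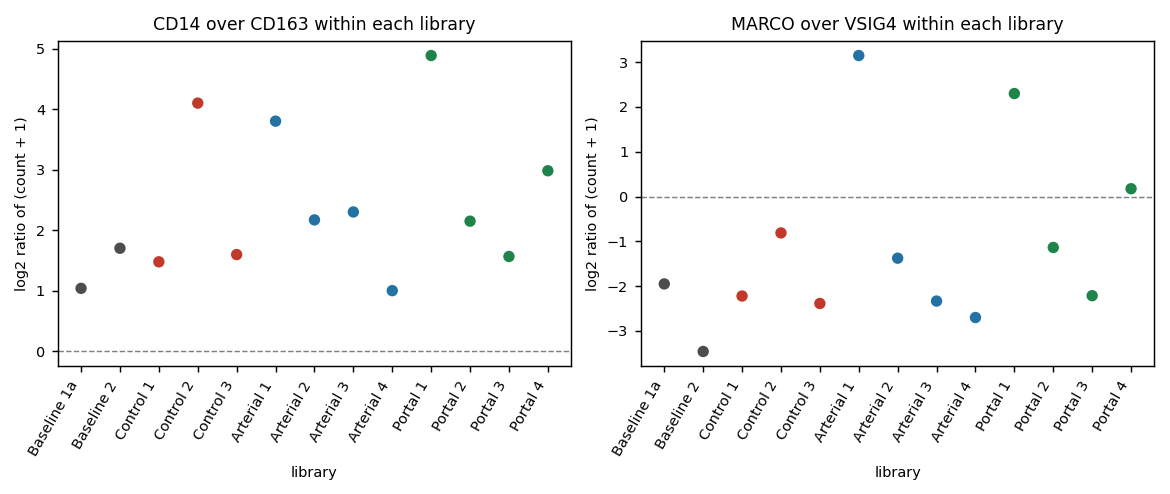
Log2 ratio of reads plus 1 (y axis) of CD14 over CD163 (left) and of MARCO over VSIG4 (right) in each of the 13 livers (x axis, coloured by group); the dashed line marks equal reads. Ischemic control 2, arterial infusion 1 and portal infusions 1 and 4 are the 4 highest points in both plots.

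The 10 genes did not vary as 1 block. Over the 13 livers, the log2 CPM of CD163, VSIG4 and MSR1 ran closely together, with Pearson's r of 0.97 for CD163 and VSIG4, 0.95 for VSIG4 and MSR1 and 0.93 for CD163 and MSR1. In the 9 livers without the 4 named above these were 0.73, 0.65 and 0.66. CD68 followed them (r = 0.78 with CD163), though in the 9 livers this was 0.31. MARCO went against CD163 over the 13 livers (r = -0.71) and not in the 9 (r = 0.08). CSF1R, SPI1 and CD14 formed a second set with r of 0.65 to 0.66 between each pair, which for CSF1R and CD14 was -0.05 in the 9 livers. Of the 45 pairs, 14 had an r over 0.5 and 6 one under -0.5. The points share libraries, depth and cell content, and the correlations are given as a description.

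**Figure D4:**
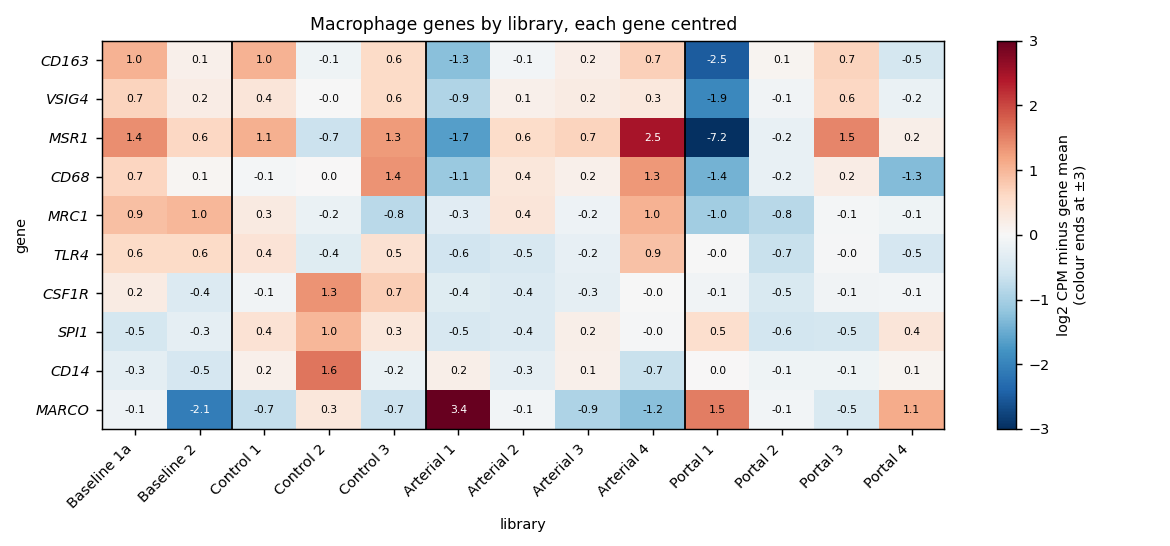
Log2 CPM of each gene (rows) minus its own mean over the 13 livers (colour and printed value, colour ends at ±3) in each liver (columns, lines between the groups). CD163, VSIG4, MSR1 and CD68 are low together in arterial infusion 1 and portal infusion 1, where MARCO is high, and ischemic control 2 is high for CD14, CSF1R and SPI1.

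Other macrophage genes were read from lists drawn up from general knowledge. Of 17 further resident macrophage genes tested, 0 passed the adjusted p in any comparison (edgeR), and 4 were lower after infusion at an unadjusted p under 0.05, against 1.41% of all tested genes on the low side. The log2 fold change was negative for 14 of the 17 in that comparison (52.1% of all tested genes), and for 12 of the 17 without the 4 livers that stood apart. In the controls against baseline it was positive for 10 (50.2% of all tested genes) and negative for 7, with a median of 0.20. C1QA, C1QB and C1QC among them were the subunits of C1q, the starter of the classical complement pathway, which in liver is made mainly by macrophages. C1QA was at 6267 and 3874 normalized counts at baseline, 7108, 18970 and 11900 in the controls, 6185, 4674, 5507 and 5321 after arterial and 5910, 4923, 6199 and 6138 after portal infusion. Each of the 8 infused livers was under each of the 3 controls, an order that held for 0.34% of all tested genes. The log2 fold change was -1.18 (SE 0.30, edgeR, adjusted p = 1.000), -0.81 without ischemic control 2 and -0.82 without the 4 livers that stood apart. C1QC, named after its values were seen, had the same order, with 4969 to 7617 in the infused livers against 8519, 16380 and 12150. C1QB was at 3855 to 7793 against 7036, 15320 and 11880, so that portal infusion 1 lay above control 1. On TMM-scaled CPM the infused livers lay below the controls for C1QB as well. The fourth was ID3, a transcriptional regulator on this list, also named after its values were seen, at 329 to 1099 against 989 to 1514. C1QA and C1QB were named for the largest differences of the list between controls and baseline (log2 fold changes of 1.29 and 1.31, and for C1QA 0.93 without ischemic control 2), so that these values describe the choice, and the comparison with infused livers uses the same 3 controls. CLEC4F, a lectin of Kupffer cells that was also named after its values were seen, was at 1017 and 498 at baseline and at 75.8 to 509.7 in the 11 livers at 6 h.

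**Figure D5:**
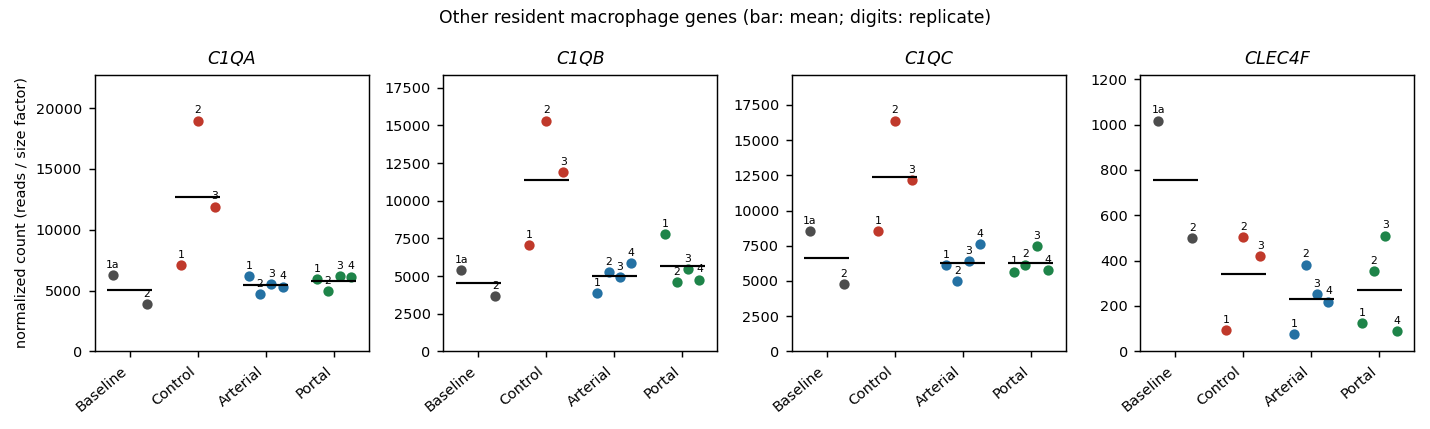
Normalized counts (y axis, scale set per gene and starting at 0) of C1QA, C1QB, C1QC and CLEC4F by group (x axis); each point is 1 liver with its replicate number and the bar is the group mean. The infused livers lie below the 3 controls for C1QA (4674 to 6199 against 7108 to 18970) and C1QC, and 1 infused liver, portal infusion 1, overlaps for C1QB.

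Of 11 tested genes on a list for macrophages in general, 8 had a positive and 3 a negative log2 fold change in the controls against baseline (median 0.55). It was positive for 50.2% of all tested genes. In all livers at 6 h against baseline the counts were 6 and 5 (median 0.16), with 49.5% of all tested genes positive. After infusion 9 of the 11 were negative against the controls (52.1% of all tested genes), with a median of -0.40. Of these, 2 had an unadjusted p under 0.05 (edgeR, 1.41% of all tested genes on the low side). Without ischemic control 2, 6 of the 11 were negative, and without the 4 livers that stood apart 10 were. FCER1G and CD74 are named for the largest differences between controls and baseline. FCER1G, the signalling chain of Fc receptors, was at 542 and 436 normalized counts at baseline and at 688 to 3250 in the 11 livers at 6 h (median 1124), above both baseline livers in all 11, an order that held for 3.3% of all tested genes. Its log2 fold change was 1.49 (SE 0.53, edgeR, adjusted p = 0.860), and 1.01 without the 4 livers that stood apart, which at 1574 to 3250 were the 4 highest for it. Because the gene was chosen on 3 of these livers and the same baseline, this is a description. CD74, the invariant chain of MHC class II, was at 5395 and 6380 at baseline, 10260, 35540 and 16500 in the controls and 5246 to 67880 after infusion, where portal infusion 1 was highest. In the recruited monocyte list 10 of 11 genes had a positive log2 fold change in the controls against baseline (50.2% of all tested genes), with a median of 1.53, and 2 had an unadjusted p under 0.05 (4.37% of all tested genes). These were the calprotectin-family genes S100A8, at 158 and 161 at baseline with 365, 5752 and 973 in the controls, and S100A12, at 209.8 and 196 against 502, 4912 and 1500. Their log2 fold changes of 3.83 and 3.45 (edgeR, adjusted p = 0.978 for each) became 2.09 and 2.33 without ischemic control 2. The call for both depended on the method: they passed in DESeq2 on only these groups (adjusted p = 0.00192 and 0.00174) and in edgeR without a filter on low counts (adjusted p = 0.0112 and 0.0127). Neutrophils make both genes too, and of their markers MMP9 was at 57.9 and 36.9 at baseline against 47.5, 573 and 277 in the controls, and CSF3R at 259 and 347 against 218, 767 and 872. What part these cells had was not tested. Against the same 3 controls, 11 of the 11 monocyte genes had a negative log2 fold change after infusion (52.1% of all tested genes), with a median of -0.66, and 10 of 11 with a median of -0.41 without ischemic control 2, and 0 had an unadjusted p under 0.05 in edgeR with all livers, against 2 without that control.

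Partners of the receptors were read in the same way. Of the 12 tested (among them the ligands CSF1 and IL34, the TLR4 partner LY96 and the adaptors MYD88 and TICAM1), none had an unadjusted p under 0.05 in edgeR for controls against baseline or for infused livers against controls. LBP, the hepatocyte-made protein that delivers lipopolysaccharide to CD14, was at 15150 and 14100 at baseline, 12110, 3178 and 9101 in the controls, 3274, 9303, 11740 and 7172 after arterial and 2605, 13790, 12290 and 4349 after portal infusion. It was lowest in portal infusion 1, ischemic control 2, arterial infusion 1 and portal infusion 4, the livers in which CD163 was also lowest. TICAM1, the adaptor of the second TLR4 pathway, was at 524 and 599 at baseline and at 541, 1429 and 1195 in the controls. CEBPB was at 7277 and 4697 in the baseline livers and at 13320, 25420 and 11860 in controls 1 to 3, with portal infusion 1 highest at 33370. KLF4, a monocyte factor, was at 32.4 and 77.0 at baseline with 170.1, 63.0 and 88.9 in the controls.

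Genes whose pattern was most like that of the 10 genes were sought among the other tested genes by Pearson's r with the mean of the centred log2 CPM of the 10 over the 13 livers. This mean was lowest in portal infusion 1, at -1.22, where MSR1 with its 0 reads stood at -7.2 and MARCO, CD14 and SPI1 were above their own means. The 10 nearest had r between 0.897 and 0.924, and the first of them with a symbol were B3GALT6, ZSCAN12, WDFY4 and PANX1. Of these 10, 0 were among the 10 nearest in the 9 livers without the 4 that stood apart, where their r was 0.475 to 0.863, so that which genes came nearest changed without those 4 livers.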

How the data were processed

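From non-directional libraries the authors kept reads that passed filters on adapters, uncertain bases and base quality, aligned these to the pig genome Sscrofa11.1 (HISAT2), assigned them to genes (FeatureCounts) and deposited unnormalized counts, 1 column per library. Tool versions and the handling of reads with several positions are not given in the sources used here. Without strand, reads of a gene and an antisense partner cannot be told apart. Groups and replicate numbers come from the labels, and 0 columns were left without a sample. No 2 libraries of a group were copies (chi-square per gene at least 83.6).

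The deposited counts were tested with edgeR 4.0.16 in R 4.3.3 (quasi-likelihood test after filterByExpr and TMM scaling, Benjamini-Hochberg over 16481 genes, threshold 0.05, two-sided), with all 13 libraries in 1 fit, after a check on simulated data. Normalized counts are counts divided by DESeq2 1.42.0 size factors, written to 4 significant digits. Permutation tests enumerated all regroupings of log2(normalized count + 1). The common biological coefficient of variation was 0.729, and 0 reads are compatible with up to 3, for counting error only. Moving from TMM to size factors shifted the median log2 difference of all genes from -0.044 to -0.16 for livers at 6 h against baseline. Coordinates are from the RefSeq table of Sscrofa11.1, matched by symbol, and all 10 identifiers carried the same symbol in a table of pig gene names. No sequences were printed, since the tables used hold none.

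The 10 genes, the 11 other lists and the tests were chosen with earlier results of these data known. Of 113 symbols in the other lists 102 had a row, and 11 are not analysed here: CD5L, ADGRE1, CYBB, S100A9, FCN1, HP, CXCR1, CXCR2, FPR1, FPR2 and STAB2. Genes outside the 10 were named by a fixed rule, the 2 largest absolute log2 fold changes of each list in controls against baseline and the 10 genes of nearest pattern, except where stated. Alternatives were DESeq2, other scalings and filters, leaving out mitochondrial and small RNA genes (1824), a replicate block, and leaving out libraries.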

Additional observations from a re-analysis of the deposited data

Results flagged for a closer look

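Dixon's test of the gap over the range was run on 20 sets of 4 livers (10 genes in each infusion group). In 3 of these sets 1 liver lay far from the other 3. A rate by chance of about 1 in 20 sets would need independent sets of normally spread values. These sets share the same infused livers and hold untransformed normalized counts, so the 3 are a description. MARCO was at 3695 normalized counts in arterial infusion 1, against 146 to 331 in the other arterial livers. CSF1R was at 2290 in arterial infusion 4, against 1740 to 1820. TLR4 was at 673 in arterial infusion 4, against 246 to 295. CD163, VSIG4, MSR1, CD68 and MRC1 were also highest among the arterial livers in it, and MARCO and CD14 were lowest. Its endothelial marker sum was 816 CPM.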

How the results depend on the processing

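Under every alternative run 0 of the 10 genes passed the adjusted p in any of the 6 comparisons. Of all genes, 0 passed in the main fits. DESeq2 over 13 libraries called 5 in controls against baseline, 14 in livers at 6 h against baseline, 1 in infused livers against controls, 4 in portal livers against controls and 1 between routes. DESeq2 on only the groups compared called 166 in controls against baseline and 3 in portal livers against controls, a restriction not run for livers at 6 h since it needs all libraries. Without a filter on low counts edgeR called 30, 28, 19, 11, 14 and 5 in the order controls, livers at 6 h, infused, arterial, portal and arterial against portal. Without the 4 livers that stood apart it called 1 in infused and 1 in arterial livers against controls. The cause of these shifts was not tested.

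Without those 4 livers the log2 fold changes of controls against baseline turned to 0.15 for CD163, 0.00086 for VSIG4 and 0.11 for MSR1, and to -1.36 for CD79B, a B cell gene (0.93 with all). Those of livers at 6 h against baseline turned to 0.12 for both CD68 and MSR1, and that of MSR1 in infused livers against controls to 0.025. Deviations from the group means correlated between -0.38 and 0.40 in 16 same-numbered pairs, 5 of them over 0.1. In the study the control, arterial and portal arms held different pigs, so their shared numbers do not mark the same animal. Whether a baseline liver shares its animal with a same-numbered later liver cannot be decided from this. The reason is that the deviations of the 2 baseline livers mirror each other. With the replicate block CD68 turned to -0.34 (controls against baseline) and MRC1 to -0.12 (infused against controls), and 0 of the 10 genes were called.

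With each library left out in turn, controls against baseline ranged from -0.48 to 0.42 for CD163, -0.14 to 1.81 for MARCO, -0.38 to 0.53 for CD68, -0.34 to 0.090 for VSIG4, -0.62 to 0.16 for MSR1 and -1.34 to 1.46 for CD79B. Livers at 6 h against baseline ranged from -0.51 to 0.096 for CD68, -0.15 to 0.51 for CSF1R and -0.68 to 0.099 for MSR1, and infused livers against controls from -0.13 to 0.41 for MRC1, -0.58 to 0.25 for MSR1 and -0.24 to 1.07 for the log2 ratio of CD14 to CD163. MSR1 had no value where 10 counts in every library were required.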

Other observations

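Markers of other cells that a biopsy can hold were read beside the macrophage genes, and none passed the adjusted p in edgeR. The neutrophil list had 5 genes with a row, 4 of them tested. The summed level of the 5 was 19.8 and 21.0 CPM at baseline and 11.7 to 120.1 CPM at 6 h. MMP9 and CSF3R were the tested genes of largest difference. The T and NK cell genes summed to 31.0 and 36.9 CPM at baseline and 23.9 to 142 CPM at 6 h, where portal infusion 1 was highest, and 9 of their 9 tested rows had a positive log2 fold change at 6 h against baseline (49.5% of all tested genes), with a median of 0.86. The B and plasma cell genes summed to 12.1 and 21.1 CPM at baseline and 9.28 to 38.1 CPM at 6 h. The stellate cell and fibroblast genes were at 669 and 822 CPM at baseline, 291 to 1597 in the controls and 149 to 1192 after infusion.

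TIMD4, a phosphatidylserine receptor of resident Kupffer cells that was named after its values were seen, was at 825 and 487 normalized counts at baseline and 0 to 781 at 6 h, portal infusion 1 having 0 reads of it as of MSR1.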
